A study of Drosophila melanogaster with 9 samples.

Results

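The genes described here are 45 named components of the Drosophila cell division machinery. They comprise cyclins, cyclin-dependent kinases and their regulators, E2F and Rb proteins, DNA replication factors, mitotic kinases, the spindle checkpoint, the kinetochore and the apparatus of cytokinesis. They are given by name, and 44 of the 45 were found by FlyBase ID among the 17421 genes of the table. Mcm3 was not analysed here. Reads were counted from the 3′ ends of transcripts in the dissected central nervous system (CNS) of homozygous 1st instar (L1) larvae. The flies were kept at 25 °C, larvae were picked by a visible marker, and each genotype had 3 libraries, made from 40 ng of total RNA each. Canton-S, a wild-type strain, was the control. elav5 larvae lack elav through a homozygous deletion, and elav5/fne larvae are homozygous for deletions of elav and of fne. elav and fne encode neuronal RNA-binding proteins of the ELAV/Hu family, so both mutants share the elav deletion and differ by the fne deletion. The labels do not state the extent of the deletions, the genetic background, the sex of the larvae or the number of animals per library. Effects of the named deletions cannot be told apart from those of other strain differences.

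A dividing cell passes from G1 to S phase when D and E cyclins activate Cdk4 and Cdk2 and release the E2F factors from the Rb protein. The p21/p27-type inhibitor Dacapo (dap) holds Cyclin E and Cdk2 inactive as cells leave the cycle. Origins of replication are licensed in G1 by Cdt1 (dup in the fly) and the Mcm helicase and are blocked from relicensing by Geminin. Entry into mitosis needs the phosphatase String (stg, the Cdc25 of the fly) to activate Cdk1 with the mitotic cyclins. Kinetochores then bind the spindle, the spindle checkpoint holds the anaphase-promoting complex (APC/C) until every chromosome is attached. The APC/C activators Fizzy and Fizzy-related act during mitosis and after it, respectively. In the CNS at this stage the dividing cells are neuroblasts, the neural stem cells, and their daughters, whereas neurons do not divide. Most neuroblasts are quiescent at hatching and re-enter the cycle in early larval life.

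In elav5/fne larvae 4 of 5 tested G1/S regulators, 3 of 5 genes of mitotic entry, 4 of 5 kinetochore genes and 4 of 5 checkpoint genes and APC/C activators were higher than in Canton-S, led by Kmn1, dap and stg, and 0 of 10 replication genes were. In elav5 larvae E2f1, geminin, Mcm6, Top2, Bub1 and scra were lower than in Canton-S, and stg and fzr were higher. Levels are given in normalised CPM, which are reads divided by the deposited size factor of each library and scaled so that the column totals average 1e6. Of the 44 genes, 42 had a mean of at least 1 over the 9 libraries and were tested. Kmn1 and Spc25 reached such a mean only through their elav5/fne libraries, which limits the count of kinetochore genes above. The test was limma on log2(normalised CPM + 1) over all 9384 genes with such a mean, with Benjamini-Hochberg adjustment and a threshold of 0.05. Log2 changes are on that scale, on which changes of low genes come out too small. In elav5 against Canton-S, 8 of the 42 genes passed, 2 higher and 6 lower, where 15.2% of all tested genes passed, 8.17% higher and 7.04% lower. In elav5/fne against Canton-S, 21 passed, 20 higher and 1 lower, where 43.2% of all tested genes passed, 25.8% higher and 17.5% lower. In elav5/fne against elav5, 22 passed and each was higher, where 30.8% of all tested genes passed, 18.5% higher and 12.3% lower. Both comparisons with Canton-S use the same control libraries, and the elav5/fne libraries serve in 2 of the 3 comparisons, so the 3 counts are not independent.

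The median log2 change of the 42 genes was -0.11 in elav5 against Canton-S, beside 0.02 over all tested genes. It was 0.61 in elav5/fne against Canton-S, beside 0.15 over all genes, and 0.75 in elav5/fne against elav5, again beside 0.15. The counts of called genes describe the list and were not tested as a set. With trimmed mean (TMM) scaling the median of all genes moved to 0.02 and 0.04 in the comparisons of elav5/fne with Canton-S and with elav5. The share of higher genes among all genes called then moved from 59.6% to 48.9% and from 60.04% to 45.8%. The members of the list then split into 17 higher and 1 lower and into 20 higher and 0 lower, and their medians relative to all genes were 0.47 and 0.59, beside 0.46 and 0.59 with the deposited scaling. Libraries of the groups did not overlap for 17 of the 42 genes in elav5 against Canton-S, 13 of them lower. Of all tested genes 35.6% did not overlap, 18.1% higher and 17.4% lower. In elav5/fne the libraries did not overlap with Canton-S for 28 genes, 25 of them higher, where 58.3% of all tested genes did not overlap, 34.6% higher and 23.7% lower. Against elav5 they did not overlap for 25 genes, each higher, where 43.8% of all tested genes did not overlap, 26.8% higher and 17% lower. In such bulk samples, fewer cells of a type and less RNA per cell cannot be told apart, and the same holds for more.

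**Figure D1:**
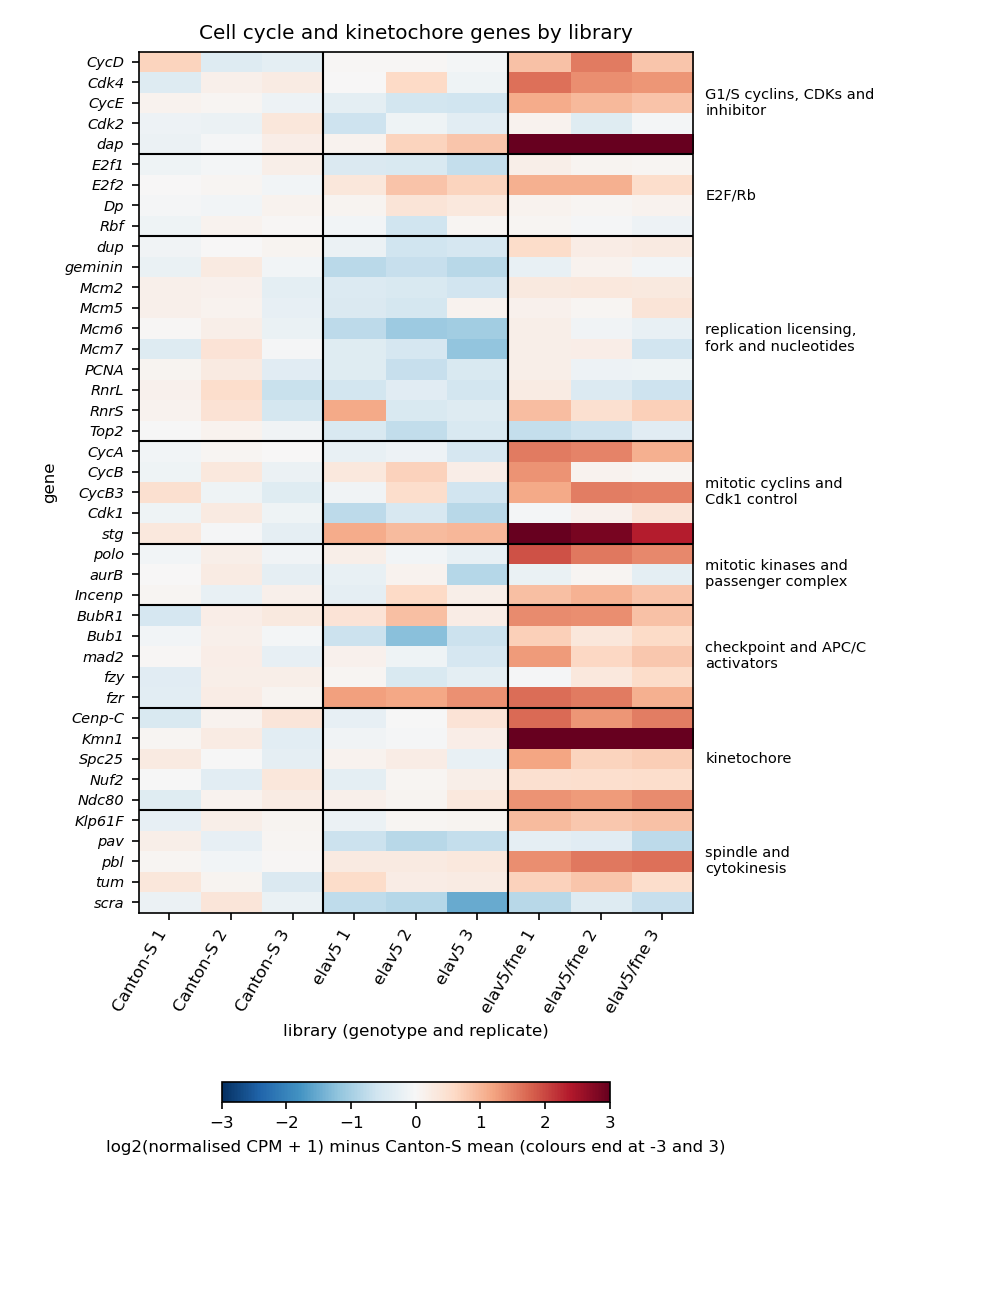
Heat map of the 42 tested cell cycle genes (rows, grouped by role) in the 9 libraries (columns, by genotype), coloured by log2(normalised CPM + 1) minus the mean of the 3 Canton-S libraries, with the colours cut off at the ends of the scale. The elav5/fne columns are raised for Kmn1 (log2 change 4.40), dap (3.65) and stg (2.75), while 9 of the 10 rows of replication genes have a log2 change below 0 in elav5. Among all 9384 tested genes, 4543 have a log2 change below 0 in that comparison with Canton-S.

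The libraries held 15241461 to 18822734 reads and 10712 to 11970 genes with a read. The floor that a count of 0 allows, 3 reads, lay between 0.150 and 0.196 normalised CPM and covers counting error only. Since the labels name no separate animals or cultures, p-values reflect the spread among these libraries alone, and that spread may be technical. elav was at 1643 ± 68.3 normalised CPM in Canton-S and at 31.2 ± 9.26 and 45.3 ± 22.6 in elav5 and elav5/fne, and fne was at 5041 ± 546, 4696 ± 219 and 375 ± 129.8 (SD, n = 3). Both were low in the genotypes labelled as lacking them. The labelled tissue was checked with markers. The summed level of the 9 neuron markers lay between 11349.8 and 11969 normalised CPM in Canton-S, between 10020.8 and 11648 in elav5 and between 6408 and 7777 in elav5/fne, and none was at 0 in any library. Markers of muscle and gut, which lie beside the CNS, differed between libraries of 1 genotype. The 10 muscle markers summed to between 649 and 820.2 normalised CPM in Canton-S, between 584 and 6893 in elav5 and between 1575 and 7828 in elav5/fne. The 8 gut markers summed to between 8.76 and 42.8, between 9.86 and 528 and between 33.8 and 591 normalised CPM, with 1 to 4 of the 8 at 0 in each library. Both lists were highest in replicate 1 among the elav5 libraries and in replicate 3 among those of elav5/fne. Without those 2 libraries together 10, 19 and 20 cell cycle genes passed in the 3 comparisons, in the order above, and with the muscle level of each library as a covariate 10, 16 and 21 passed.

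Most markers of neuroblasts were higher in elav5/fne than in Canton-S, where the 10 replication genes had a median log2 change of -0.04. In elav5 the median of the neuroblast markers was 0.18, beside -0.11 for the cell cycle genes. Of 11 neuroblast markers 0 passed in elav5 against Canton-S, and in elav5/fne against Canton-S 9 were higher and 1, brat, was lower, with a median log2 change of 2.15. The 11 markers summed to between 1339.8 and 1640.2 normalised CPM in Canton-S, between 1168 and 1381 in elav5 and between 1679 and 2291 in elav5/fne, and none was at 0 in any library. brat alone made up a mean of 1102, 882 and 814 of these sums. The call of brat was lost without Canton-S replicate 2 or 3 or elav5/fne replicate 3 (log2 change -0.42 to -0.31, limma adjusted p = 0.0765 to 0.0973). ase, a proneural factor of neuroblasts, had 2.35, 4.23 and 5.93 normalised CPM in Canton-S, 4.05, 5.68 and 4.19 in elav5 and 68.6, 63.5 and 54.7 in elav5/fne. mira, which segregates fate determinants in dividing neuroblasts, had 23.6, 21.6 and 29, 19, 26.4 and 21.1 and 127, 122 and 91.8. Both were above every other library in the 3 elav5/fne libraries. pros, a marker of the same list that was not called, went the other way. It had 211, 248 and 202 normalised CPM in Canton-S, 212, 205 and 119 in elav5 and 164, 155 and 158 in elav5/fne. Its elav5/fne libraries lay below those of Canton-S. Of the 9 neuron markers 8 were lower in elav5/fne than in Canton-S, and 1, cac, did not pass. Of 8 glial markers 1, wrapper, was lower. These counts stand beside 25.8% higher and 17.5% lower among all tested genes in elav5/fne against Canton-S. In elav5 against Canton-S these shares were 8.17% and 7.04%. The share of lower glial markers did not exceed that of all tested genes. The part of these cell types in the levels of the cell cycle genes was not tested.

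Of the 5 G1/S regulators, 4 were higher in elav5/fne than in Canton-S and 0 were called in elav5. dap (chromosome 2R, 9712321 to 9716256 of dm6), the inhibitor of Cyclin E and Cdk2, had 15.2, 17 and 19.9 normalised CPM in Canton-S, 18.8, 27.9 and 31.3 in elav5 and 278, 237 and 182 in elav5/fne. All 3 elav5/fne libraries lay far above the other 6, the elav5 libraries overlapped with Canton-S, and replicate 3 was the lowest of the elav5/fne libraries. The means were 17.4 ± 2.39, 26 ± 6.48 and 232 ± 48.4 (SD, n = 3), so that dap was 13.4-fold higher in elav5/fne than in Canton-S (log2 change 3.65, SE 0.21, limma adjusted p = 2.44e-06). It was 3.12 higher on the log2 scale than in elav5 (limma adjusted p = 9.97e-06). In elav5 its log2 change was 0.53 (limma adjusted p = 0.124), which passed without elav5 replicate 1, the library highest in muscle and gut markers (0.74, limma adjusted p = 0.0374). Counted from the largest rise, dap ranked 67th among the 9384 tested genes in elav5/fne against Canton-S.

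The genes on which dap acts differed in their levels. CycE, the cyclin of S phase entry, had 8.71, 8.45 and 7.19 normalised CPM in Canton-S, 6.37, 5.22 and 4.98 in elav5 and 18.7, 16.8 and 15.5 in elav5/fne. The 3 genotypes did not overlap, elav5 being lowest and elav5/fne highest. CycE was 2.09-fold higher in elav5/fne than in Canton-S (log2 change 0.98, SE 0.17, limma adjusted p = 0.00126). Its log2 change of -0.49 in elav5 did not pass (limma adjusted p = 0.0838). Cdk2, the kinase partner of Cyclin E, overlapped between all genotypes, at 11 ± 2.53, 8.29 ± 1.56 and 10.1 ± 1.77 normalised CPM, and was not called in any comparison. Ratios of 2 genes within a library, here and below, were taken with 1 added to both levels. Differences in both genes enter such a ratio, so that of dap to Cdk2 does not measure dap alone. The log2 ratio of dap to Cdk2 was 0.62, 0.78 and 0.49 in the Canton-S libraries, 1.38, 1.43 and 1.76 in elav5 and 4.45, 4.69 and 4.01 in elav5/fne, and did not overlap between the genotypes.

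The other G1 kinase and its cyclin were also higher in elav5/fne. Cdk4, the partner of Cyclin D in growth and G1 progression, had 4.06, 6.34 and 6.95 normalised CPM in Canton-S, 5.66, 9.14 and 5.04 in elav5 and 19.9, 16.6 and 15.7 in elav5/fne. The elav5 and Canton-S libraries overlapped and the elav5/fne libraries stood above both. The test gave a log2 change of 1.46 against Canton-S (SE 0.25, limma adjusted p = 0.00129). CycD had 3.26, 1.06 and 1.2 normalised CPM in Canton-S, 1.74, 1.76 and 1.57 in elav5 and 3.96, 6.83 and 3.74 in elav5/fne. Canton-S replicate 1 lay above the other 5 libraries without the fne deletion, and below those of elav5/fne. Its log2 change was 1.09 in elav5/fne against Canton-S (SE 0.34, limma adjusted p = 0.0268). The CycD call against Canton-S was lost without Canton-S replicate 2 or 3 or elav5/fne replicate 2 (log2 change 0.86 to 0.94, limma adjusted p = 0.0862 to 0.1099). That against elav5 was lost without any 1 of the 6 libraries compared (0.85 to 1.21, limma adjusted p = 0.0501 to 0.141). On recovered reads CycD also missed the threshold against Canton-S with edgeR (adjusted p = 0.0724) and with DESeq2 (adjusted p = 0.0511).

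Of the 4 E2F and Rb genes, E2f2 was higher in elav5/fne than in Canton-S, and E2f1 was lower in elav5 than in both other genotypes. E2f1, the activating E2F of the fly, had the most reads of the 44 genes, with 277, 290.2 and 340.2 normalised CPM in Canton-S, 223, 218 and 184 in elav5 and 339, 321 and 312 in elav5/fne. The elav5 libraries lay below all 6 others, and those of Canton-S and elav5/fne overlapped. On the log2 scale E2f1 fell by 0.54 in elav5 libraries (SE 0.11, limma adjusted p = 0.0116). It was 0.64 higher in elav5/fne than in elav5 (limma adjusted p = 0.0019), and had a log2 change of 0.10 in elav5/fne against Canton-S (limma adjusted p = 0.472). E2f2, the repressing E2F, had 8.86, 9.21 and 8.21 normalised CPM in Canton-S, 11.3, 16.6 and 14.5 in elav5 and 19.5, 19.4 and 13.1 in elav5/fne. Both mutants lay above Canton-S and overlapped with each other. The log2 change of E2f2 was 0.89 in elav5/fne (SE 0.20, limma adjusted p = 0.00566) and 0.62 in elav5. The latter passed in part of the settings (limma adjusted p = 0.0685 with all libraries, 0.0470 without elav5 replicate 1 and 0.0424 without elav5/fne replicate 3). Dp, the dimer partner of both E2F proteins, was at 63.7 ± 4.49, 76.6 ± 8.38 and 67.5 ± 1.43 normalised CPM, and Rbf, the Rb protein that binds them, at 19.5 ± 1.82, 17.1 ± 4.07 and 19 ± 1.41, and neither was called. Their log2 changes lay between -0.20 and 0.26 in the 3 comparisons.

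**Figure D2:**
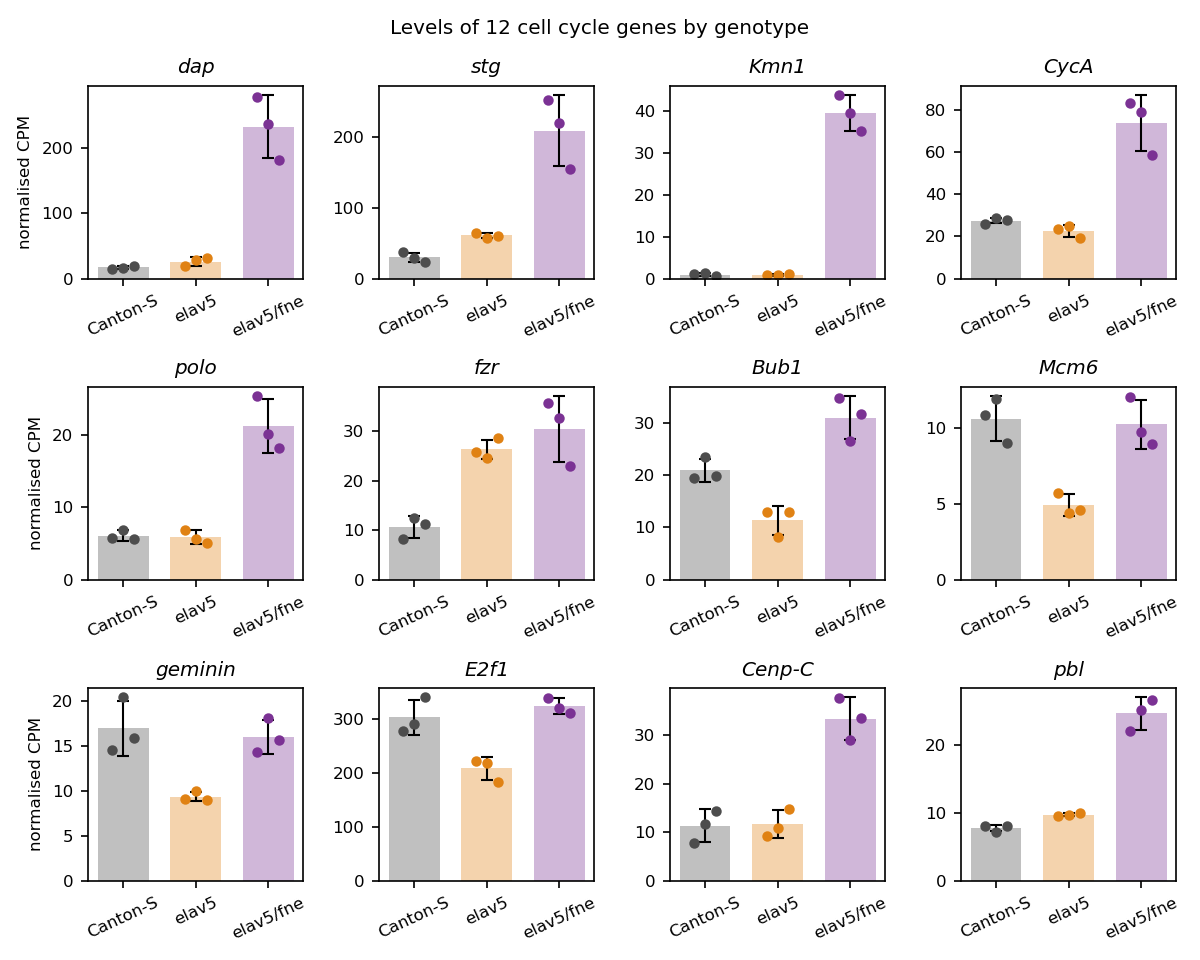
Normalised CPM (vertical axes, linear from 0) of 12 cell cycle genes in each library (points) by genotype, with the mean (bars) and SD (error bars) of 3 libraries. The elav5/fne points lie far above the rest for dap, stg and Kmn1, the elav5 points lie lowest for E2f1, Mcm6 and geminin, and fzr is raised in both mutants.

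The replication genes had another order of the genotypes. Of the 10 tested, 3 were lower in elav5 (geminin, Mcm6 and Top2), 0 were higher, 9 had a log2 change below 0, and the median was -0.50. Among all 9384 tested genes, 4543 had a log2 change below 0 in elav5 against Canton-S. In elav5/fne 0 of the 10 were higher than in Canton-S and 1, Top2, was lower, with a median of -0.04. Against elav5, 4 of the 10 were higher in elav5/fne (dup, geminin, Mcm2 and Mcm6). Mcm6, a subunit of the replicative helicase, had 10.9, 11.9 and 8.99 normalised CPM in Canton-S, 5.72, 4.37 and 4.58 in elav5 and 12.1, 9.74 and 8.94 in elav5/fne. The elav5 libraries were below every library of the other genotypes, which overlapped. Mcm6 fell by 0.97 on the log2 scale in elav5 (SE 0.19, limma adjusted p = 0.0101), and was 0.93 higher in elav5/fne than in elav5 (limma adjusted p = 0.00533). geminin, which blocks relicensing, had 14.6, 20.5 and 15.9 normalised CPM in Canton-S, 9.13, 9.99 and 9.03 in elav5 and 14.3, 18.1 and 15.7 in elav5/fne, again with elav5 below all other libraries. The log2 change in elav5 was -0.78 (SE 0.17, limma adjusted p = 0.0144), a call that was lost without Canton-S replicate 2 (-0.65, limma adjusted p = 0.0572). geminin was 0.71 higher in elav5/fne than in elav5 (limma adjusted p = 0.0105).

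Top2, the topoisomerase that untangles replicated chromosomes, was the only 1 of the 42 genes called lower than in Canton-S in elav5/fne. Its libraries had 29, 31.7 and 27.4 normalised CPM in Canton-S, 21.1, 17.2 and 20.9 in elav5 and 17.6, 18.6 and 22.8 in elav5/fne, so that both mutants lay below Canton-S and overlapped with each other. Its log2 change was -0.56 in elav5/fne (SE 0.15, limma adjusted p = 0.012) and -0.55 in elav5 (limma adjusted p = 0.0333). The call in elav5 was lost without any 1 of Canton-S replicates 1, 2 and 3, elav5 replicates 1 and 2 and elav5/fne replicate 2 (log2 change -0.60 to -0.46, limma adjusted p = 0.0522 to 0.112). The call in elav5/fne passed without each of the 9 libraries.

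The remaining replication genes shared the order of the genotypes in part. dup, the Cdt1 of the fly, was at 5.81 ± 0.466, 4.09 ± 0.819 and 7.73 ± 1.13 normalised CPM in Canton-S, elav5 and elav5/fne. Mcm2, another helicase subunit, was at 5.22 ± 0.996, 3.42 ± 0.264 and 6.61 ± 0.0697. Both had elav5 libraries below and elav5/fne libraries above all those of Canton-S. Only the differences between the mutants passed, with log2 changes of 0.78 for dup (limma adjusted p = 0.0158) and 0.78 for Mcm2 (limma adjusted p = 0.0146). The dup call was lost without elav5 replicate 2 or elav5/fne replicate 1 (log2 change 0.69 and 0.68, limma adjusted p = 0.0535 and 0.0650). PCNA, the sliding clamp of DNA polymerase, was at 13.9 ± 3.13, 9.4 ± 1.17 and 13.4 ± 1.81, with all elav5 libraries below those of both other genotypes. It did not pass in elav5 (log2 change -0.51, limma adjusted p = 0.117). The helicase subunits Mcm5 (2.55 ± 0.501, 1.95 ± 0.751 and 3.05 ± 0.496 normalised CPM) and Mcm7 (4.5 ± 1.53, 2.44 ± 0.942 and 4.28 ± 1.45) overlapped between genotypes and were not called. RnrL and RnrS, which encode the subunits of the ribonucleotide reductase that makes DNA precursors, were not called either. RnrL was at 9.84 ± 4.13, 6.33 ± 0.624 and 7.91 ± 2.94. RnrS varied among the elav5 libraries, which had 14.5, 4.18 and 4.39 normalised CPM, and its difference between the mutants passed without elav5 replicate 1 (log2 change 1.13, limma adjusted p = 0.0169, against 0.61 and 0.306 with it).

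Of the 5 genes of mitotic entry, 3 were higher in elav5/fne than in Canton-S, and stg was higher in both mutants. stg (chromosome 3R, 29251826 to 29255800), the phosphatase that activates Cdk1, had 37.1, 29 and 24.3 normalised CPM in Canton-S, 65.2, 58.3 and 60.5 in elav5 and 254, 220.4 and 155 in elav5/fne. The 3 genotypes did not overlap and rose in that order, and stg was the only gene of the 42 called higher in all 3 comparisons. With means of 30.1 ± 6.47, 61.3 ± 3.5 and 209.7 ± 50.1, stg was 2.03-fold higher in elav5 than in Canton-S (log2 change 1.02, SE 0.20, limma adjusted p = 0.00938). It was 6.96-fold higher in elav5/fne (2.75, SE 0.20, limma adjusted p = 7.20e-06). The difference between the mutants was 1.73 on the log2 scale (limma adjusted p = 0.000166). The kinases that oppose String were set beside it in each library, as log2 ratios with 1 added to both levels. Differences in Wee1 and Myt1 enter these ratios as well, so the ratios do not measure stg alone. The log2 ratio of stg to Wee1 was 1.24, 0.39 and 0.57 in Canton-S, 1.47, 1.30 and 1.18 in elav5 and 4.41, 4.17 and 3.94 in elav5/fne. That of stg to Myt1 was 3.36, 2.92 and 2.85, 4.19, 4.01 and 4.04 and 6.75, 6.06 and 4.91. Both ratios were higher in every elav5/fne library than in every other library, and only the ratio to Wee1 overlapped between Canton-S and elav5.

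The mitotic cyclins differed from each other. CycA, which acts in S phase and in mitotic entry, had 25.9, 28.6 and 27.9 normalised CPM in Canton-S, 23.3, 24.7 and 19.2 in elav5 and 83.3, 79 and 58.7 in elav5/fne. The elav5 libraries lay just below and the elav5/fne libraries well above those of Canton-S. The log2 changes were -0.29 (limma adjusted p = 0.238) and 1.37 (SE 0.16, limma adjusted p = 0.000105). CycB3, the cyclin of late mitosis, had 3.31, 1.81 and 1.38 normalised CPM in Canton-S, 1.87, 3.39 and 1.05 in elav5 and 5.75, 7.86 and 7.67 in elav5/fne, where all 3 lay above the rest. Its log2 change was 1.39 in elav5/fne against Canton-S (SE 0.34, limma adjusted p = 0.00863), which did not pass with the muscle level as a covariate (1.04, limma adjusted p = 0.113). CycB had 1.75, 2.77 and 1.68, 2.77, 3.85 and 2.49 and 6.74, 2.26 and 2.16 normalised CPM in the same order of genotypes and was not called. Its elav5/fne replicate 1 lay above the other 8 libraries. Cdk1, the mitotic kinase itself, had 6.31, 8.71 and 6.29 in Canton-S, 3.67, 4.77 and 3.54 in elav5 and 6.74, 7.75 and 9.32 in elav5/fne. Its elav5 libraries were below all others. Only the difference between the mutants passed (log2 change 0.84, limma adjusted p = 0.0148), and that call was lost without elav5/fne replicate 3 (0.73, limma adjusted p = 0.0551). In elav5 against Canton-S its log2 change was -0.69 (limma adjusted p = 0.0559).

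Of the mitotic kinases and the passenger complex, polo and Incenp were higher in elav5/fne, 0 of 3 tested genes were called in elav5, and aurA was below the level tested. polo, the Polo kinase of spindle assembly and mitotic exit, had 5.71, 6.94 and 5.57 normalised CPM in Canton-S, 6.95, 5.61 and 5.04 in elav5 and 25.4, 20.1 and 18.2 in elav5/fne. The Canton-S and elav5 libraries overlapped, and those of elav5/fne lay above them. The mean was 3.5 times the Canton-S mean (log2 change 1.64, SE 0.19, limma adjusted p = 0.00012). Incenp, which anchors the Aurora B kinase, was at 7.87 ± 1.2, 9.16 ± 2.99 and 15.8 ± 1.08 normalised CPM. Its log2 change was 0.93 in elav5/fne against Canton-S (limma adjusted p = 0.00854) and 0.77 against elav5 (limma adjusted p = 0.0293). The call against elav5 was lost without elav5 replicate 1 or 3 or any 1 of the elav5/fne libraries (0.55 to 0.80, limma adjusted p = 0.0567 to 0.0926). aurB, the kinase of the same complex, was at 8.54 ± 1.69, 6.82 ± 2.45 and 7.59 ± 1.14, overlapped between genotypes and was not called. aurA, the kinase of centrosomes, had 1.1, 0.805 and 0.12, 0.901, 1.83 and 1.83 and 0.989, 0.538 and 0.825 normalised CPM, a mean under 1, and was not among the genes tested.

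Among the spindle checkpoint genes and the activators of the APC/C, 4 of 5 were higher in elav5/fne than in Canton-S, and the 2 activators differed. fzr, which keeps the APC/C active in G1 and in cells that have left the cycle, had 8.16, 12.5 and 11.2 normalised CPM in Canton-S, 25.7, 24.7 and 28.5 in elav5 and 35.7, 32.6 and 23 in elav5/fne. Both mutants lay above Canton-S and overlapped with each other. fzr was 2.48-fold higher in elav5 than in Canton-S (log2 change 1.25, SE 0.20, limma adjusted p = 0.0044). It was 2.87-fold higher in elav5/fne (1.43, SE 0.20, limma adjusted p = 0.000367), and the difference between the mutants did not pass (0.18, limma adjusted p = 0.533). fzy, the mitotic activator, was at 2.68 ± 0.716, 2.12 ± 0.583 and 3.47 ± 0.892 normalised CPM, overlapped between genotypes and was not called. Since fzy is low, adding 1 to both levels makes the ratio of fzr to fzy smaller than that of the levels themselves. The log2 ratio so taken was 1.68, 1.73 and 1.57 in the Canton-S libraries, 2.83, 3.29 and 3.32 in elav5 and 3.38, 2.88 and 2.18 in elav5/fne. Every mutant library was above every Canton-S library.

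The checkpoint kinases and mad2 had patterns of their own. Bub1, a kinase of the spindle checkpoint, had 19.5, 23.3 and 19.8 normalised CPM in Canton-S, 12.9, 8.1 and 13 in elav5 and 34.7, 26.6 and 31.6 in elav5/fne, with no overlap between the 3 genotypes. It was the only 1 of the 42 genes called in opposite directions in the mutants. The log2 changes were -0.85 in elav5 (SE 0.19, limma adjusted p = 0.0189) and 0.54 in elav5/fne (SE 0.19, limma adjusted p = 0.0468). The first call was lost without Canton-S replicate 1 or 2 (-0.89 and -0.77, limma adjusted p = 0.0538 and 0.0749). The second was lost without any 1 of the 6 libraries compared (0.46 to 0.65, limma adjusted p = 0.0507 to 0.137) or with TMM scaling (0.41, limma adjusted p = 0.116), and it passed in 8 of the 23 alternatives run. It was missed with edgeR (adjusted p = 0.111), DESeq2 (adjusted p = 0.0870) and the replicate block (limma adjusted p = 0.0686). The difference between the mutants passed in all 23. BubR1, its relative in the mitotic checkpoint complex, had 3.51, 6.39 and 6.83 normalised CPM in Canton-S, 7.53, 11 and 6.42 in elav5 and 16.1, 15.9 and 10.8 in elav5/fne. The elav5/fne libraries were above all of Canton-S but overlapped with elav5. The log2 change was 1.24 against Canton-S (SE 0.28, limma adjusted p = 0.00599). mad2, which inhibits Fizzy at unattached kinetochores, had 1.5, 1.81 and 1.08 normalised CPM in Canton-S, 1.67, 1.24 and 0.72 in elav5 and 4.95, 2.74 and 3.3 in elav5/fne. Its log2 changes were 0.90 against Canton-S (limma adjusted p = 0.0336) and 1.07 against elav5 (limma adjusted p = 0.0224). The elav5/fne libraries lay above the other 6. The call against Canton-S was lost without Canton-S replicate 1 or 3 or elav5/fne replicate 1 or 3 (0.71 to 0.95, limma adjusted p = 0.0626 to 0.113). That against elav5 was lost without elav5 replicate 2 or 3 or elav5/fne replicate 1 (0.88 to 1.09, limma adjusted p = 0.0510 to 0.0828).

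**Figure D3:**
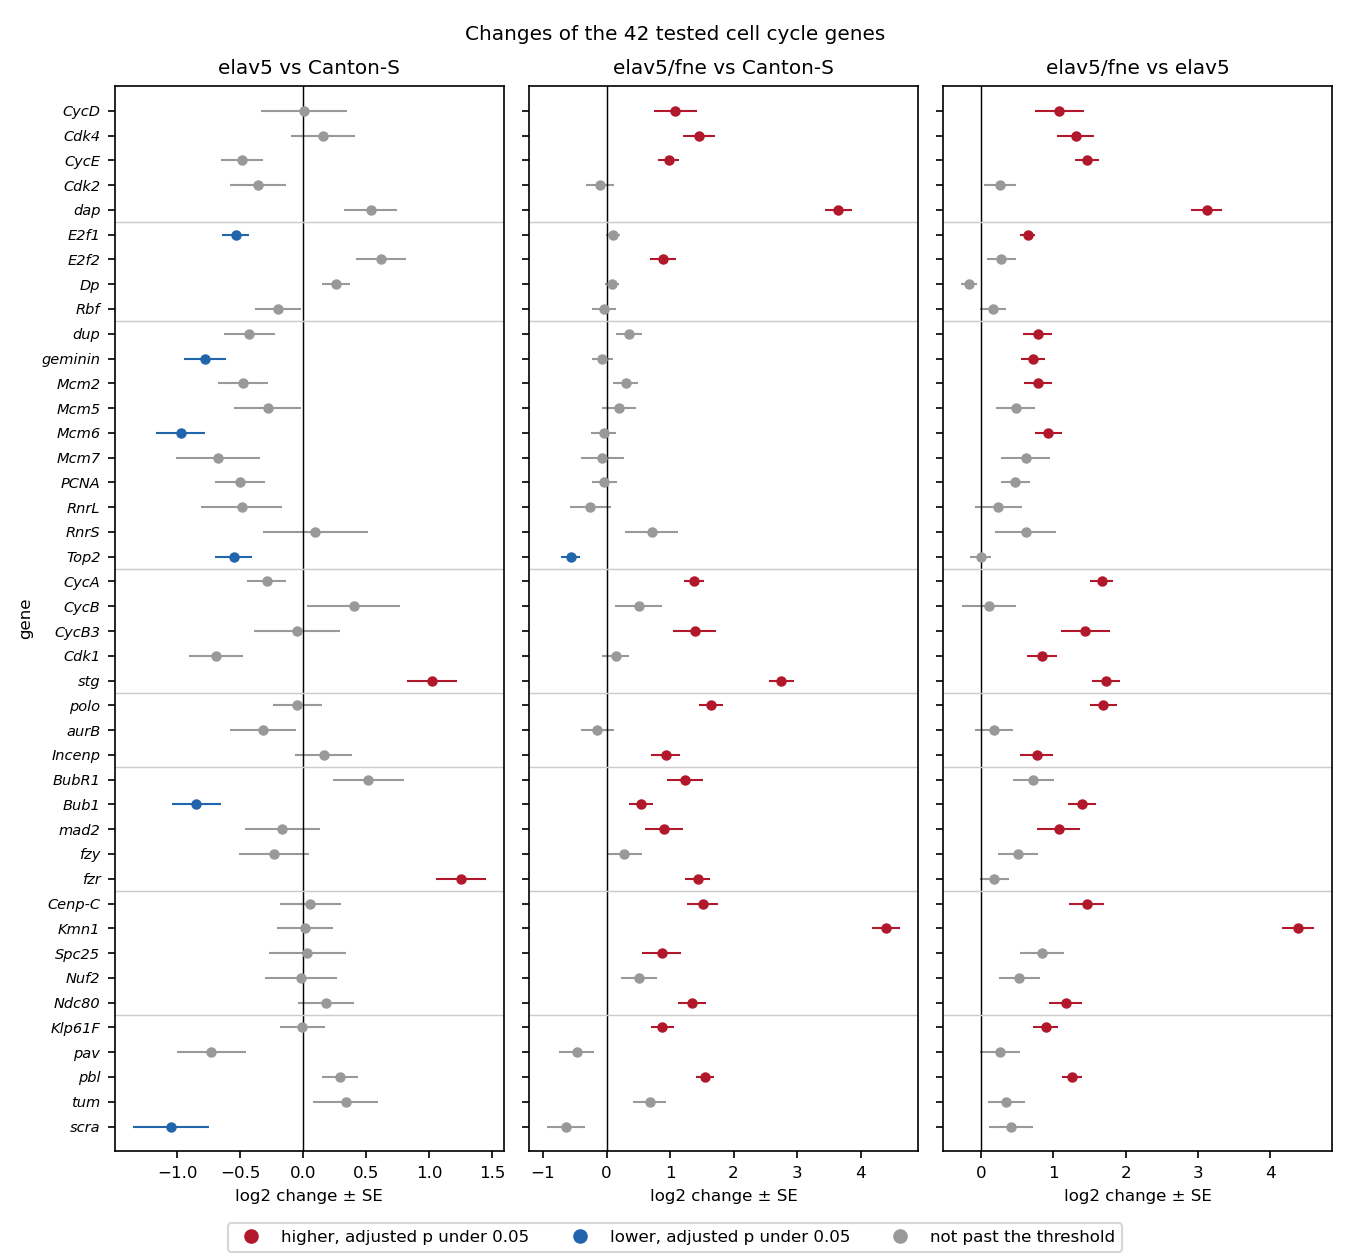
Log2 change with SE of each of the 42 tested cell cycle genes, grouped by role, in elav5 against Canton-S, elav5/fne against Canton-S and elav5/fne against elav5, on the log2(normalised CPM + 1) scale. Against Canton-S the elav5 values run from -1.05 (scra) to 1.25 (fzr) and those of elav5/fne from -0.64 (scra) to 4.40 (Kmn1).

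Of the 5 tested kinetochore genes, 4 were higher in elav5/fne than in Canton-S and 0 were called in elav5. Of these 4, Kmn1 and Spc25 had means of 0.933 and 0.725 in Canton-S and of 0.933 and 0.758 in elav5. Both passed the filter on low values only through elav5/fne, so they were tested only because they were high there. Kmn1, a component of the Mis12-Ndc80 network that joins the centromere to microtubules, rose most of the 42 genes. It had 1.002, 1.26 and 0.539 normalised CPM in Canton-S, 0.772, 0.849 and 1.18 in elav5 and 43.8, 39.4 and 35.3 in elav5/fne. The Canton-S and elav5 libraries overlapped at a low level, with 9 to 25 reads each, and the elav5/fne libraries had 556 to 733 reads. Its level was 42.3 times that of Canton-S in elav5/fne (log2 change 4.40, SE 0.22, limma adjusted p = 1.24e-06). Counted from the largest rise, its log2 change ranked 23rd of the 9384 tested genes against Canton-S and 5th against elav5. Kmn1 (chromosome X, 11571383 to 11572442, minus strand, dm6 coordinates of the BDGP6.54 annotation) has its 3′ end inside a neighbour on the plus strand, CG11699 (chromosome X, 11570621 to 11571718), with which it shares 336 bases. CG11699 had 35.5, 30.9 and 28.6 normalised CPM in Canton-S, 31.6, 32.5 and 35.7 in elav5 and 108, 90.2 and 94.1 in elav5/fne, and was also higher in elav5/fne (log2 change 1.59, SE 0.12, limma adjusted p = 1.03e-05). The strand setting of the count is not stated, so reads of the 2 genes cannot be told apart where they overlap. The annotation also lists an insertion of the transposable element pogo of 186 bases within Kmn1 (chromosome X, 11571507 to 11571692). fne lies 1.35 Mb from Kmn1 on the same chromosome, and the fne deletion and other differences between the strains in this stretch of the X chromosome cannot be told apart.

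Cenp-C, Ndc80 and Spc25 were the other kinetochore genes called higher, with smaller log2 changes than Kmn1. Cenp-C, which links centromeric chromatin to the outer kinetochore, had 7.66, 11.8 and 14.4 normalised CPM in Canton-S, 9.13, 10.9 and 14.9 in elav5 and 37.7, 28.9 and 33.6 in elav5/fne. Ndc80, the microtubule-binding subunit that gives its complex its name, had 1.8, 2.92 and 3.3 in Canton-S, 3.02, 2.81 and 3.47 in elav5 and 8.16, 7.8 and 8.63 in elav5/fne. For both genes the elav5/fne libraries lay above all others, and those of Canton-S and elav5 overlapped. The log2 changes in elav5/fne against Canton-S were 1.52 for Cenp-C (SE 0.24, limma adjusted p = 0.000835) and 1.35 for Ndc80 (SE 0.22, limma adjusted p = 0.00103). Spc25, of the same complex, had 1.05, 0.705 and 0.419, 0.836, 0.979 and 0.458 and 2.91, 1.72 and 1.84 normalised CPM and was higher in elav5/fne than in Canton-S (log2 change 0.87, limma adjusted p = 0.0444). That call was lost in 8 of the 9 fits without 1 library, all but that without elav5 replicate 3 (0.70 to 1.001, limma adjusted p = 0.0516 to 0.132). Its 3′ end is covered by grsm, at 8.48, 3.14 and 2.65 normalised CPM. grsm was lower in elav5/fne (log2 change -1.47, limma adjusted p = 0.0135, and 0.0530 without elav5/fne replicate 2). Nuf2, the partner of Ndc80, had 1.25, 0.805 and 1.86, 0.836, 1.37 and 1.57 and 2.16, 2.21 and 2.28 and did not pass (0.51, limma adjusted p = 0.176), although its elav5/fne libraries lay above all others. cid, the centromeric histone, was too low to be tested, with 0.401, 0.201 and 0 normalised CPM in Canton-S, 0.643, 0.457 and 0.458 in elav5 and 0.989, 1.02 and 1.46 in elav5/fne, the last above all others. The 0 in Canton-S replicate 3 allows up to 0.1797 normalised CPM. Without the filter on low values the log2 change of cid in elav5/fne against Canton-S was 0.85 (limma adjusted p = 0.00409). It rests on 8, 4 and 0 reads in Canton-S and 16, 19 and 23 in elav5/fne. The change of cid against elav5 did not pass (0.50, limma adjusted p = 0.0609). aurA, also below the filter, passed in no comparison without it (limma adjusted p = 0.223 to 0.766).

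**Figure D4:**
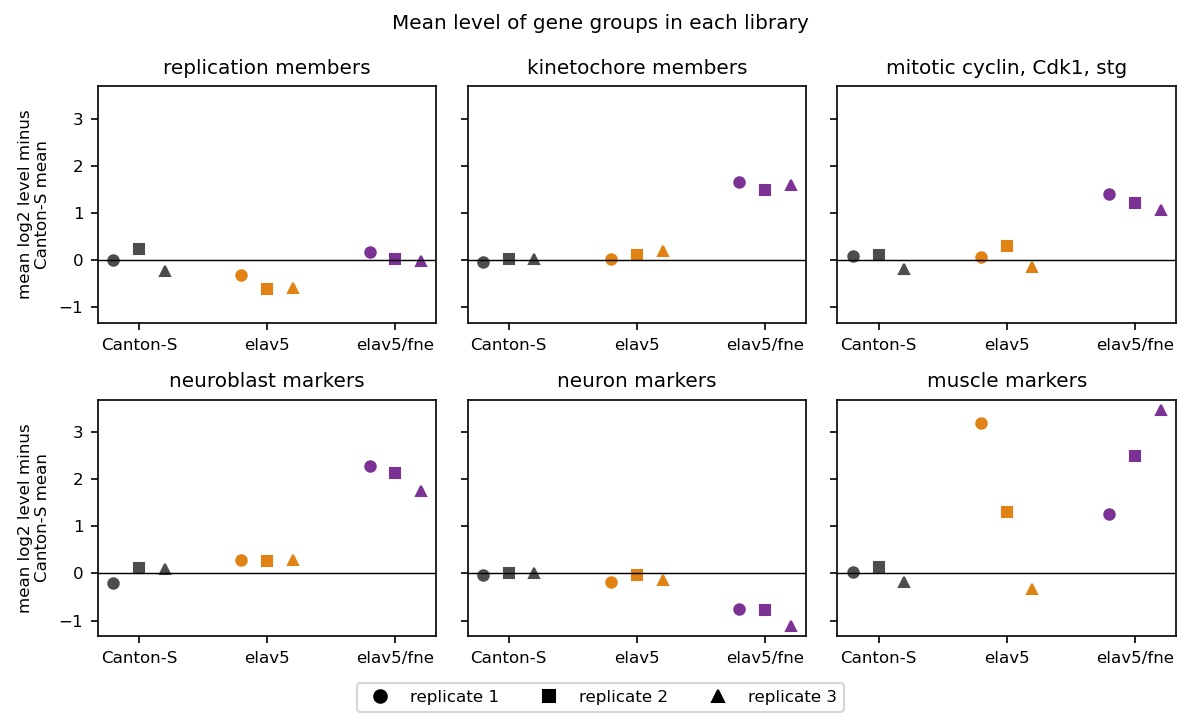
Mean log2(normalised CPM + 1) of 3 groups of cell cycle genes (replication, kinetochore, and the mitotic cyclins with Cdk1 and stg) and of the neuroblast, neuron and muscle markers, per library (points, shaped by replicate) and relative to the mean of the Canton-S libraries. The elav5/fne libraries lie at 1.67, 1.49 and 1.59 for the 6 kinetochore genes, at 2.28, 2.13 and 1.76 for the neuroblast markers and at 1.26, 2.49 and 3.47 for the muscle markers, in the order of replicates 1, 2 and 3, while the elav5 libraries lie at -0.32, -0.61 and -0.59 for the replication genes.

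Of the 5 spindle and cytokinesis genes, Klp61F and pbl were higher in elav5/fne and scra was lower in elav5. pbl, which is needed for cytokinesis, had 8.11, 7.25 and 8.03 normalised CPM in Canton-S, 9.58, 9.66 and 10.02 in elav5 and 22.1, 25.3 and 26.8 in elav5/fne. The genotypes did not overlap, and the log2 change was 1.54 in elav5/fne (SE 0.14, limma adjusted p = 2.98e-05) and 0.29 in elav5 (limma adjusted p = 0.196). Klp61F, the kinesin-5 motor of the bipolar spindle, was at 6.67 ± 1.13, 6.59 ± 0.754 and 13 ± 0.674 normalised CPM, a log2 change of 0.88 in elav5/fne (limma adjusted p = 0.00327). scra, the anillin of the contractile ring, had 3.06, 4.83 and 2.995 in Canton-S, 1.67, 1.5 and 0.589 in elav5 and 1.55, 2.47 and 1.84 in elav5/fne. Both mutants lay below Canton-S, but scra passed only in elav5 (log2 change -1.05, SE 0.30, limma adjusted p = 0.0458). That call was lost in each of the 9 fits without 1 library (-1.19 to -0.82, limma adjusted p = 0.0538 to 0.145). pav and tum, the kinesin and the GTPase activator of the centralspindlin complex, were not called. pav had 2.85, 1.86 and 2.52 normalised CPM in Canton-S, 1.16, 0.914 and 1.05 in elav5 and 1.79, 1.67 and 0.951 in elav5/fne, while tum had 3.46, 2.72 and 1.62, 4.18, 3.07 and 3.14 and 4.7, 5.22 and 4.06. The pav libraries of both mutants lay below Canton-S (log2 changes -0.73 and -0.47), and the tum libraries of elav5/fne lay above it (0.68, limma adjusted p = 0.0566).

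Seen across the comparisons, 14 of the 42 genes were higher in elav5/fne than in both other genotypes and not called in elav5: Cdk4, CycD, CycE, dap, CycA, CycB3, polo, Incenp, mad2, Cenp-C, Kmn1, Ndc80, Klp61F and pbl. E2f1, Mcm6 and geminin were lower in elav5 than in Canton-S and higher in elav5/fne than in elav5. BubR1, E2f2 and Spc25 were called only against Canton-S and Cdk1, Mcm2 and dup only against elav5, all higher in elav5/fne. Another 14 genes were called in no comparison: Cdk2, Dp, Rbf, Mcm5, Mcm7, PCNA, RnrL, RnrS, CycB, aurB, fzy, Nuf2, pav and tum. Calls held in each of the 9 fits without 1 library for 4 of 8 genes in elav5, 17 of 21 in elav5/fne against Canton-S and 17 of 22 in elav5/fne against elav5. The 4 in elav5 were stg, fzr, E2f1 and Mcm6. Of the 44 genes, 16 overlap another annotated gene, 2 of them (Cdk2 and E2f1) on the same strand. The 3′ ends of 8 (Cdk2, aurA, mad2, fzy, Kmn1, Spc25, Nuf2 and Klp61F) lie within another gene of the table, and reads counted for these genes may stem from the neighbour in part.

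Of the other genes of the division cycle, 110 were tested in 9 lists. In elav5/fne against Canton-S 29 were higher and 8 lower, in elav5 against Canton-S 3 were higher and 7 lower, and in elav5/fne against elav5 32 were higher and 5 lower. Of all tested genes 25.8% were higher and 17.5% lower in the first comparison, 8.17% and 7.04% in the second and 18.5% and 12.3% in the third, so the shares of higher genes against Canton-S and of lower genes in elav5 lay near those of all genes. The other 20 replication genes had a pattern like that of the 10 above: in elav5 0 were higher, 2 were lower and 19 had a log2 change below 0 (median -0.57). The share called lower lay near the 7.04% of all tested genes, of which 4543 of 9384 had a log2 change below 0. In elav5/fne 2 of the 20 were higher than in Canton-S and 1 lower (median -0.11). Prim2, a primase subunit, had 2.05, 1.81 and 2.16 normalised CPM in Canton-S, 0.45, 0.261 and 0.458 in elav5 and 0.68, 0.377 and 0.951 in elav5/fne, both mutants lying below Canton-S. Prim2 passed the filter on low values only through its Canton-S libraries (mean 2.01, beside 0.39 and 0.669). Its log2 changes were -1.11 (limma adjusted p = 0.0303) and -0.86 (limma adjusted p = 0.0353), respectively. The first call was lost without any 1 of the 6 libraries compared (limma adjusted p = 0.0509 to 0.0931) and the second without any 1 of the Canton-S libraries or elav5/fne replicate 1 or 2 (limma adjusted p = 0.0573 to 0.123). The licensing factor Cdc6 (2.81, 1.8 and 6.81 normalised CPM in the 3 genotypes) and l(2)dtl, which directs the breakdown of Cdt1 (3.89, 3.08 and 8.24), were higher in elav5/fne than in both other genotypes.

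The lists of chromosome structure and centriole genes held genes called higher in elav5/fne than in Canton-S and 0 called lower. The counts of each list are to be read beside the 25.8% higher and 17.5% lower among all tested genes, and none was tested as a set. Of 13 condensin and cohesin genes 6 were higher and 0 lower. They included the condensin subunit Cap-G (15.5 ± 2.12, 21.5 ± 4.51 and 62.2 ± 1.67 normalised CPM, log2 change 1.94), the cohesin protector dmt (1.37) and the cohesin acetyltransferase eco (0.98). In elav5, eco was lower than in Canton-S (-0.65, limma adjusted p = 0.0338), a call that was lost in 7 of the 9 fits without 1 library. Of 10 centriole and centrosome genes 5 were higher and 0 lower. They included Sas-6, a protein of the centriole cartwheel (0.974 ± 0.596, 1.35 ± 0.282 and 7.4 ± 1.71 normalised CPM, log2 change 2.11), ana1 (1.32) and the pericentrin-like Plp (1.09). Each of these 6 genes kept its call in elav5/fne against Canton-S without each library. Of 13 genes of DNA damage checkpoints and other brakes 5 were higher and 2 lower. Their median log2 change was -0.04, beside 0.15 over all tested genes, and 7 of the 13 lay below 0. The checkpoint kinase lok, the Chk2 of the fly, was at 6.77 ± 0.897, 6.44 ± 1.05 and 32.4 ± 3.74 normalised CPM (log2 change 2.11), and rad50 (1.35) and mre11 (1.61), of the complex that senses broken DNA ends, were higher too. Of 5 genes of the DREAM complex, which regulates cell cycle genes with E2F, Myb (0.59) and mip120 (0.71) were higher.

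The lists next to the kinetochore and the APC/C were mixed in elav5/fne against Canton-S. Of 11 further kinetochore and checkpoint genes 3 were higher and 3 lower. Mad1, which recruits mad2, went from 24.1 ± 4.06 to 11.2 ± 2.62 normalised CPM (log2 change -1.05, limma adjusted p = 0.00177). The loading factor of the centromeric histone, cal1, went from 35.7 ± 2.23 to 22.3 ± 3.16 (-0.66), and Bub3 from 22.1 ± 2.76 to 13.3 ± 2.94 (-0.70). The Bub3 call was lost without Canton-S replicate 2 or elav5/fne replicate 2 (-0.61 and -0.59, limma adjusted p = 0.0655 and 0.0661). cal1 was also lower in elav5 (-0.56), where its call was lost without any 1 of the Canton-S libraries or elav5 replicate 1 or 2 (limma adjusted p = 0.0654 to 0.112). Of 10 APC/C and mitotic exit genes 1 was higher and 0 lower. It was Rca1, an inhibitor of the APC/C with Fizzy-related (15.9, 25 and 29.5 normalised CPM, log2 change 0.85). Of 16 further spindle and cytokinesis genes 3 were higher and 1 lower, among them the chromokinesin nod (1.55), the kinesin-13 Klp10A (0.44) and Septin2 (-0.48). The Klp10A call was lost without Canton-S replicate 1 or elav5/fne replicate 1 or 2 (0.27 to 0.41, limma adjusted p = 0.0908 to 0.102). That of Septin2 was lost without Canton-S replicate 1 or 2 or elav5/fne replicate 3 (-0.52 to -0.36, limma adjusted p = 0.0506 to 0.108). Of 12 further cyclins, Cdks and their partners, most of them known for roles in transcription or neurons, 2 were higher, CycG (0.70) and CycT (0.47), and 1 was lower, Cdk5alpha, the activator of the neuronal kinase Cdk5 (-1.004).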

How the data were processed

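3′-end libraries (Lexogen QuantSeq REV, per the labels' protocols) of 9 L1 CNS samples were analysed from 1 deposited table of 17421 genes. Its values are a signal that the authors deposited: whole reads per gene divided by 1 size factor per library, read from the values, 100% of which were whole multiples of their column's step within 0.1. The build was dm6, per the submitters' processing notes, and neither the aligner nor the counting program and its strand setting is stated. Values were rescaled to normalised CPM, and 17251 IDs matched the BDGP6.54 annotation while 170 did not. Genes with a mean of 1 or more (9384) were tested 2-sided in 1 trended limma (3.58.1) fit of log2(normalised CPM + 1) on genotype over the 9 libraries. Alternatives were pseudocounts of 0.25 and 5, no filter and a mean of 5, TMM, median of ratios and library total scaling, the recovered reads tested with DESeq2 1.42.0 and with the quasi-likelihood of edgeR 4.0.16, robust eBayes, a replicate block, separate fits of 2 genotypes, the muscle level as a covariate and libraries left out. The scripts were tested on simulated data. The members and lists were chosen with earlier results of these data known. Values per library are given for members called with a log2 change of at least 1 in size, for the member of smallest p of each role and for further members described in the text, and up to 3 called genes are named per list of other pathway genes, ranked by p in the comparison of elav5/fne with Canton-S. Wee1, Myt1, CG11699 and grsm were added as partners or neighbours, chosen with values known. Of 203 list entries 194 were used. Marker lists were neuroblast, neuron, glia, muscle, gut, fat body, hemocyte, germline and epidermis, trachea and disc genes. A planned search for promoter motifs was not run, since no sequence was used here. R 4.3.3 and Python 3.11.15 with pandas 2.3.3, numpy 2.4.6, scipy 1.17.1 and matplotlib 3.10.9 were used.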

Additional observations from a re-analysis of the deposited data

Results flagged for a closer look

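Bub1 was called in opposite directions in the 2 mutants, and the difference between them passed the test: its log2 level was 1.39 higher in elav5/fne than in elav5 (SE 0.19, limma adjusted p = 0.000588). All 3 elav5 libraries lay below and all 3 elav5/fne libraries above the Canton-S libraries. Both mutants were compared with the same Canton-S libraries. The difference between the mutants passed in all 23 alternatives, the fall in elav5 in 21 and the rise in elav5/fne against Canton-S in 8. The rise missed the threshold with edgeR (adjusted p = 0.111), DESeq2 (adjusted p = 0.0870) and the replicate block (limma adjusted p = 0.0686).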

How the results depend on the processing

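No called change of a member reversed in the 23 alternatives. The number of members called was 8, 21 and 22 in elav5 against Canton-S, elav5/fne against Canton-S and elav5/fne against elav5. With 1 library left out it ranged over 4 to 8, 17 to 21 and 18 to 22, the elav5 count being 5 when Canton-S replicate 1 was left out and 4 when replicate 2 was. Leaving out both elav5 replicate 1 and elav5/fne replicate 3 gave 10, 19 and 20. Over the other settings it ranged over 6 to 11, 16 to 22 and 18 to 22. edgeR called 7, 17 and 20 members and DESeq2 called 11, 17 and 21. Scaling to the library total, under which the median of all genes in elav5 was -0.12 and 32.1% of called genes were higher in place of 53.7%, gave 2 higher and 9 lower members in elav5 (CycE, PCNA and Cdk1 in addition). Samples of the same replicate number deviated together in 3 of 9 pairs (r from -0.70 to 0.20, over 0.1 in those 3), so the numbers were not taken to pair the samples. With the replicate block 6, 18 and 20 members were called, and all called genes numbered 909, 3564 and 2304 in place of 1428, 4056 and 2888. Members called in every alternative numbered 4, 16 and 17. Depth limits the low members most: at under 3 normalised CPM, as for Spc25, Nuf2, CycB and fzy in Canton-S, a library held few reads and the log2 scale with a pseudocount of 1 compresses changes.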

Other observations

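Of 5 germline markers, which no comparison above covers, 2 were tested, vas and aub, and both were higher in elav5/fne than in Canton-S. vas, the Vasa helicase of germ cells, had 1.35, 1.21 and 0.359 normalised CPM in Canton-S, 5.6, 4.57 and 4.84 in elav5 and 34.9, 40.5 and 31.3 in elav5/fne, with no overlap between the genotypes, and log2 changes of 1.64 (limma adjusted p = 0.00293) and 4.24 (limma adjusted p = 2.17e-06) against Canton-S. aub, a PIWI protein of the germline, had 0, 0.855 and 0.12, 0.322, 0 and 0 and 2.78, 2.37 and 3.11 and was higher in elav5/fne (log2 change 1.55, limma adjusted p = 0.00522). With means of 0.325 in Canton-S and 0.107 in elav5, aub passed the filter only through elav5/fne, so it was tested only because it was high there. The 5 germline markers summed to between 0.779 and 2.67 normalised CPM in Canton-S, between 5.29 and 6.63 in elav5 and between 35.5 and 44.5 in elav5/fne, and vas made up most of each mutant sum. In each library 2 to 3, 1 to 2 and 1 of the 5 were at 0, in that order of genotypes. bam, a germline differentiation factor, was not tested and had means of 0.535, 0.0435 and 0.277. Of the other marker lists in elav5/fne against Canton-S, 0 of 6 gut markers (median log2 change 2.82) and 0 of 5 fat body markers (-1.42) were called, 5 of 10 muscle markers (2.36) were higher, 2 of 7 hemocyte markers were higher, and 1 of 5 epidermis, trachea and disc markers was higher and 1 lower. Among all tested genes 25.8% were higher and 17.5% lower in this comparison. The shares of higher hemocyte markers and of called epidermis, trachea and disc markers lay near these. The 2 hemocyte markers, srp and NimC1, had means of 0.204 and 0.236 in Canton-S and 1.01 and 0.861 in elav5, and passed the filter only through elav5/fne.

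Further ratios within libraries were computed in the same way, with 1 added to both levels, and not tested. Differences in both genes enter each ratio. The log2 ratio of dap to CycE was 0.74, 0.93 and 1.36 in Canton-S, 1.42, 2.22 and 2.43 in elav5 and 3.83, 3.74 and 3.47 in elav5/fne, without overlap. The log2 ratio of E2f1 to E2f2 was 4.82, 4.83 and 5.21, 4.19, 3.64 and 3.58 and 4.06, 3.98 and 4.47, lower in every mutant library than in every Canton-S library. The log2 ratio of dup to geminin was -1.30, -1.64 and -1.23, -0.75, -1.30 and -1.06 and -0.61, -1.27 and -1.02, and overlapped between all genotypes.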
